A study of Mus musculus with 6 samples.

Results

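The flow-responsive and vasoactive genes of skin endothelium were followed as 10 of the 32285 genes counted in each library, chosen by symbol: *Klf2*, *Klf4*, *Nos3*, *Edn1*, *Ednrb*, *Ece1*, *Adm*, *Ramp2*, *Calcrl* and *Cav1*. They were measured by droplet single-cell RNA-seq, in which each captured mRNA molecule carries a unique molecular identifier (UMI), in tdTomato+ cells sorted from mouse back skin. All 6 mice carried *Cdh5*-CreERT2, a tamoxifen-inducible Cre driven by the VE-cadherin promoter, and a tdTomato reporter, and all received 200 μg/g tamoxifen at postnatal day (PD) 17. There were 2 WT telogen mice (PD 20, resting hair cycle) and 2 WT anagen mice (PD 32, hair growth), both of mixed C57BL/6;CD1 strain with a *Krt14*-H2BGFP transgene, and 2 Alk1 KO telogen mice (PD 25), which were Alk1 flox/flox on C57BL/6 and carried no *Krt14*-H2BGFP. One library was made per mouse, S1 and S2 in each group. Only cells that had expressed the Cre, and any that came through the sort with them, were sampled.

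Blood flow drags on the endothelial cells (ECs) that line a vessel. Laminar shear acts through a kinase route that ends at MEF2 factors and raises the transcription factors KLF2 and KLF4, which in turn favour *Nos3*, the endothelial nitric oxide synthase that relaxes vessels, and hold down *Edn1*, the endothelin-1 precursor that constricts them. Endothelin-1 is released from its precursor by *Ece1* and acts on EC through *Ednrb*. Adrenomedullin (*Adm*) relaxes vessels and is needed for lymphatic growth, and its receptor is *Calcrl* paired with *Ramp2*. Caveolin-1 (*Cav1*) builds the flask-shaped membrane pits called caveolae, where it holds nitric oxide synthase inactive. ALK1, encoded by *Acvrl1*, is an EC receptor for BMP9 and BMP10 whose signal is reinforced by flow.

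The libraries held 10615358 to 43317677 UMIs in 2283 to 6643 barcodes, and 1713 to 5106 cells per library, 20941 in all, passed the limits of 200 to 5000 genes and under 10% mitochondrial UMIs. The KO libraries were the shallowest. Pairs of libraries shared 2 to 13 barcodes. Cells were named from marker genes as 6 EC populations (Artery, Vein, the capillary populations Cap-Kdr and Cap-Rgcc, and the lymphatic collecting and capillary populations Lymph-Col and Lymph-Cap), *Cdh5*+/*Krt19*+ perineurial cells of the nerve sheath, pericytes with vascular smooth muscle cells (vSMC), and others. The 10 EC markers summed to between 4403 and 8598 in the EC populations in CPM (UMIs of a gene scaled to a common total, here to all UMIs summed over the cells of one type in one library) and to 320.1 to 599 CPM in perineurial cells. WT telogen S1 and both KO libraries held *Xist* and almost no Y-linked UMIs, whereas WT telogen S2 and both anagen libraries were the reverse, so sex moved with both comparisons. Age, strain and the H2BGFP transgene likewise moved with the KO and cannot be told apart from it. For the KO libraries the genotype tag reads wild type while the description gives Alk1 flox/flox, and the description was followed.

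*Klf2* (ENSMUSG00000055148, chr8:72319033-72321656, forward strand, GRCm38) and *Klf4* (ENSMUSG00000003032, chr4:55527143-55532466, reverse strand) are the transcription factors of the group. The 250 bases before the RefSeq start site of each are shown because the MEF2 site near the start of *Klf2* is where the shear route meets the gene, at chr8:72318812-72319061 on the forward strand and chr4:55532476-55532725 on the reverse strand of GRCm38.p6, with capitals for the MEF2 motif (CTA, any 4 bases, then TAG) and for CACCC (the KLF box) on either strand.
Klf2: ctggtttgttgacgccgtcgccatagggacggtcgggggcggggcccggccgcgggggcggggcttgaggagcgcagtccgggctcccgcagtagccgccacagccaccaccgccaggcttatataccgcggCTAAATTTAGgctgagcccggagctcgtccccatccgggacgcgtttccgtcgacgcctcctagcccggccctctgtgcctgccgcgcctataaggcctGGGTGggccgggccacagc
Klf4: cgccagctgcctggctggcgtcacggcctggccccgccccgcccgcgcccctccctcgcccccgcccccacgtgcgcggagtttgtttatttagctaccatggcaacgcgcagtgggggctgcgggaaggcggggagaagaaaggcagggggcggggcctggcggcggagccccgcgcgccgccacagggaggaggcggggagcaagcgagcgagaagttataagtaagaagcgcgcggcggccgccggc
The *Klf2* window held 1 MEF2 match, whose first base lay 118 bases before the start, and 1 CACCC on the opposite strand, and the *Klf4* window held neither. Among the 8 of 10 genes found in the RefSeq promoter table used (*Nos3* and *Ramp2* were not matched), *Klf2* alone held the MEF2 motif in windows from 250 bases before to 50 after a start, which 3.69% of all 32841 promoters held. CACCC was found in 57.5% of all promoters. A match of letters is a description and shows no binding.

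*Klf2* and *Klf4* were both highest in the collecting lymphatics. *Klf2* stood there at 2751 and 2489 CPM in the telogen, 2928 and 2556 CPM in the anagen and 2413 and 2131 CPM in the KO libraries, a mean of 2544 ± 276 CPM (SD, n = 6 libraries). Artery followed with 1877 and 1792 CPM in the telogen, 1456 and 1971 CPM in the anagen and 1589 and 1947 CPM in the KO libraries, and no library of Artery reached the lowest library of Lymph-Col. The next places, Cap-Kdr (1551 ± 173 CPM), Lymph-Cap (1194 ± 258 CPM) and Vein (798 ± 174 CPM), overlapped with their neighbours. The 2 capillary populations stood far apart, since *Klf2* ranged from 319 to 627 CPM in Cap-Rgcc and from 1319.7 to 1837 CPM in Cap-Kdr. Perineurial cells, which line no vessel, held 259.9 to 955 CPM of *Klf2*. For *Klf4* the Lymph-Col values were 2733 and 2298 CPM in the telogen, 2206 and 2366 CPM in the anagen and 2533 and 2569 CPM in the KO libraries (2451 ± 196 CPM), again without overlap with any other cell type. Fibroblasts (1239.7 ± 339 CPM), Lymph-Cap (1121 ± 116 CPM) and Artery (1113 ± 123 CPM) came next and overlapped. *Klf4* was also well above 0 in macrophages, at 299 to 1826 CPM, so it was not restricted to endothelium.

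**Figure D1:**
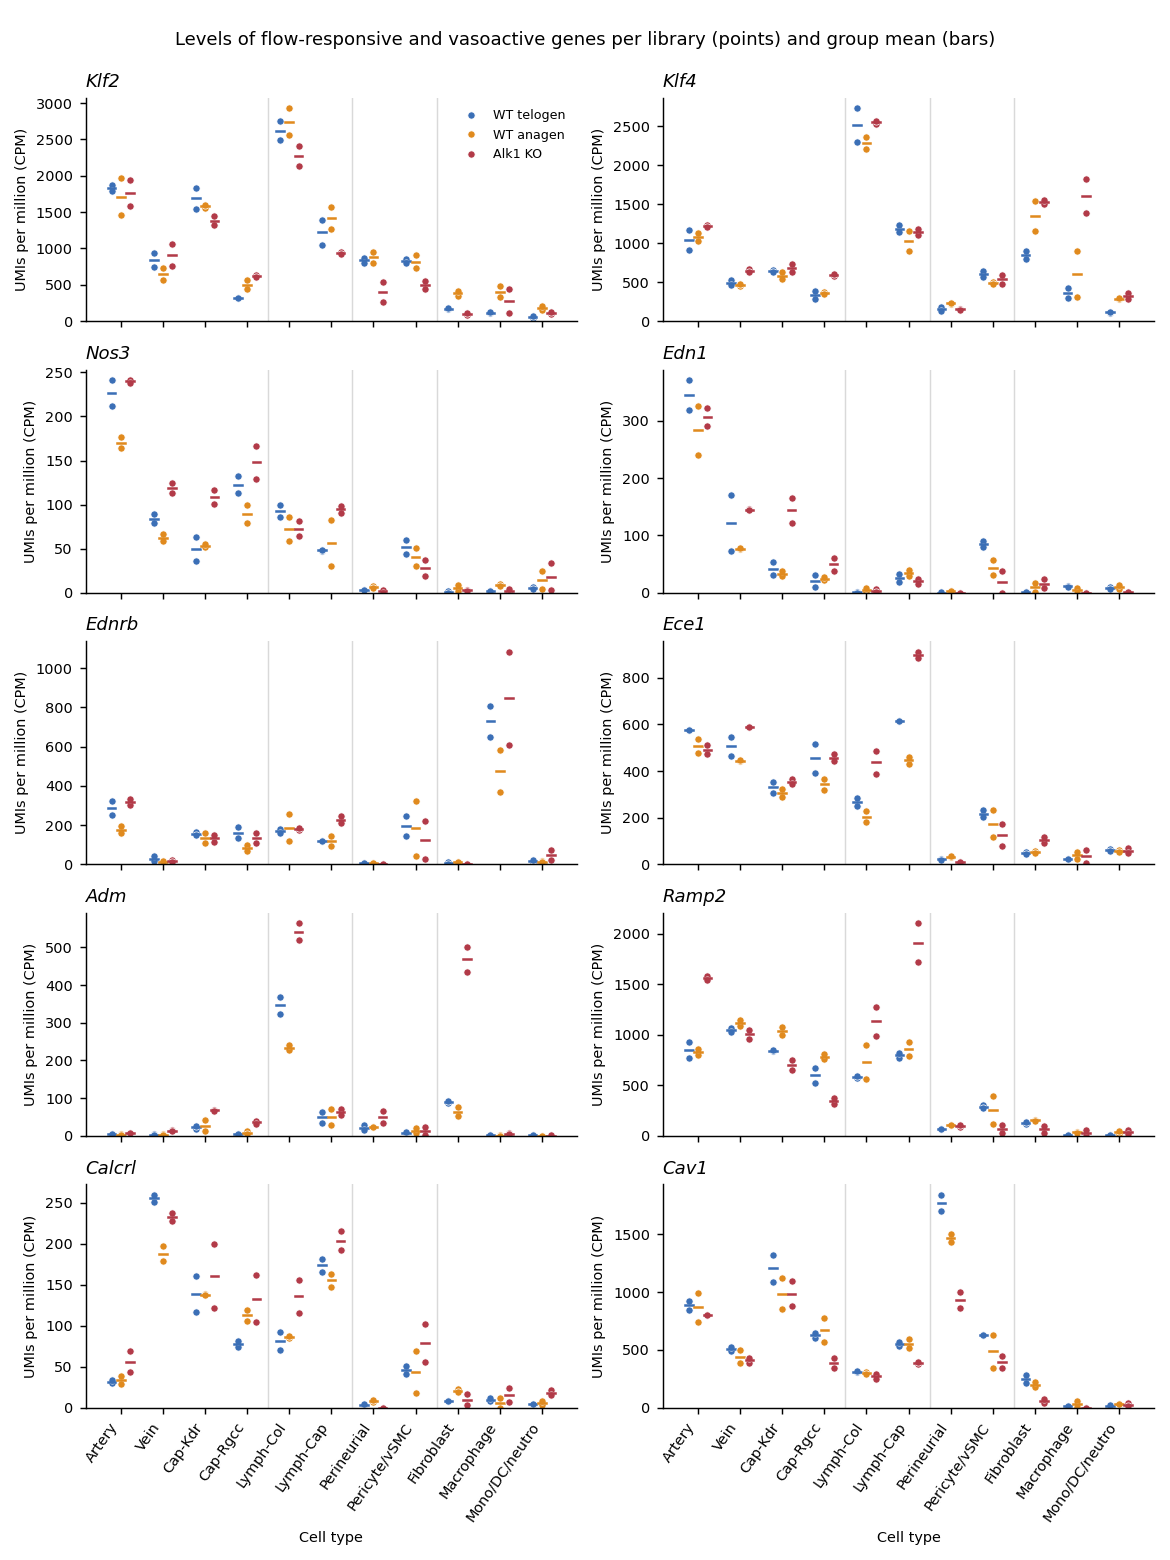
Level of each of the 10 genes in CPM (y axis, linear, from 0) in 11 cell types (x axis), with 1 point per library coloured by group and a bar at the mean of the 2 libraries. *Klf2* and *Klf4* peak in Lymph-Col, *Nos3* and *Edn1* in Artery, *Ednrb* in macrophages, *Calcrl* in Vein and *Cav1* in perineurial cells.

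*Nos3* (ENSMUSG00000028978, chr5:24364810-24384474, forward strand) was an arterial gene in level. Artery held 211 and 241 CPM in the telogen, 164 and 176 CPM in the anagen and 241 and 238 CPM in the KO libraries, or 212 ± 34.4 CPM over the 6 libraries. Cap-Rgcc was second with 119.8 ± 30.1 CPM and overlapped with Artery in range, although within every library Artery was the higher. Vein, Lymph-Col, Cap-Kdr and Lymph-Cap followed with overlapping ranges, from 88.4 ± 26.1 CPM in Vein down to 66.5 ± 28 CPM in Lymph-Cap. Perineurial cells and fibroblasts stayed at or below 8.25 CPM in every library. Nitric oxide synthase mRNA was thus seen across all EC populations, with the arterial cells at the top.

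The endothelin genes each had their own place. *Edn1* (ENSMUSG00000021367, chr13:42301476-42307990, forward strand), the ligand, was arterial: 371 and 318 CPM in the telogen, 239.9 and 326 CPM in the anagen and 321 and 291 CPM in the KO libraries (311 ± 43.4 CPM), with no overlap with Vein, the second population (114 ± 43.9 CPM). In Lymph-Col, where *Klf2* and *Klf4* were highest, *Edn1* lay at only 0 to 7.40 CPM. *Ece1* (ENSMUSG00000057530, chr4:137862237-137965229, forward strand), the converting enzyme, was spread over all EC populations, from 303 ± 113 CPM in Lymph-Col to 653 ± 205 CPM in Lymph-Cap, and the ranges of Lymph-Cap, Artery and Vein overlapped. Outside the endothelium only pericytes with vSMC came near, at 77.8 to 235 CPM. EC markers were found in those cells too, as given below, and their part in the *Ece1* level was not tested. *Ednrb* (ENSMUSG00000022122, chr14:103814625-103844402, reverse strand), the type B receptor, was highest outside the endothelium, in macrophages, with 651 and 806 CPM in the telogen, 585 and 371 CPM in the anagen and 609 and 1084 CPM in the KO libraries (684 ± 241 CPM) and no overlap with any other cell type. Among ECs it was highest in Artery as a whole (259.9 ± 72.4 CPM) and lowest in Vein, at 9.37 to 41 CPM. The vein thus held the ligand with little of this receptor. Within Artery the receptor was uneven between clusters, as given below.

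Adrenomedullin and its receptor were highest in different vessels. *Adm* (ENSMUSG00000030790, chr7:110627661-110629820, forward strand) was highest in Lymph-Col, with 324 and 369 CPM in the telogen, 228 and 240.05 CPM in the anagen and 563 and 519 CPM in the KO libraries (374 ± 140.5 CPM). Fibroblasts held 87.8 and 92.4 CPM in the telogen, 52 and 75.9 CPM in the anagen and 434 and 501 CPM in the KO libraries, from only 35 and 59 KO cells, and this difference was not tested. All other populations were lower, and Artery lay at 1.60 to 6.99 CPM. *Calcrl* (ENSMUSG00000059588, chr2:84330626-84425411, reverse strand), the receptor, was highest in Vein, with 252 and 259.6 CPM in the telogen, 197 and 179 CPM in the anagen and 229 and 238 CPM in the KO libraries (226 ± 31.6 CPM), and in Artery lowest of the 6 EC populations at 29.1 to 69.1 CPM. Lymph-Cap (178 ± 24.1 CPM) was second and overlapped with Vein. *Ramp2* (ENSMUSG00000001240, chr11:101246028-101259546, forward strand), which carries the receptor to the surface, was high in all 6 EC populations, from 578 ± 204 CPM in Cap-Rgcc to 1189.8 ± 575 CPM in Lymph-Cap, with overlapping ranges and the widest spread in Lymph-Cap. Arteries therefore held the receptor partner with little of the receptor.

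*Cav1* (ENSMUSG00000007655, chr6:17306335-17341452, forward strand) was highest in perineurial cells, at 1697 and 1839 CPM in the telogen, 1434 and 1501 CPM in the anagen and 865 and 1000.2 CPM in the KO libraries (1389.6 ± 384 CPM), and overlapped there with Cap-Kdr (1059 ± 173 CPM). Artery (850.5 ± 93.5 CPM) was next, and Cap-Rgcc (560.3 ± 155 CPM) overlapped with pericytes with vSMC (503 ± 143 CPM). Lymphatic collecting vessels were low among the ECs, with 245 to 314 CPM. Macrophages held no more than 55.3 CPM in any library.

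With the depth of each cell held equal, the cell type with the largest share of cells showing a gene was the one with its highest level for all 10 genes. Every cell was thinned to 1500 UMIs, which left out 877 shallower cells of the 6 EC populations and 106 of the immune cells (median depth of the cells kept, before thinning, 4982 and 12221 UMIs). The immune cells, which should lack most of these genes, gave the background. *Nos3* was found in 13.4% (1576 of 11722 cells, 95% exact binomial interval 12.8% to 14.1%) of ECs and in 0.419% of immune cells. *Edn1* was found in 25.9% of Artery cells and in 0.134% of Lymph-Col cells, the latter below the 0.709% of immune cells and so at background. *Adm* was found in 28.7% of Lymph-Col cells, 14.2% of fibroblasts and 0.474% of Artery cells, with 0.258% in immune cells. *Calcrl* and *Ramp2* UMIs occurred together in 1222 of 11722 ECs (10.4%), and 71.1% of the 1718 ECs with a *Calcrl* UMI also showed *Ramp2*. By population the share with both was 20.2% in Vein and 3.36% in Artery. The intervals cover counting error only. *Klf2*, *Klf4* and *Ednrb* were found in 12.3%, 24.4% and 20.4% of immune cells, and for *Ednrb* these were macrophages (48.9%) rather than T and NK cells (0.283%). Without thinning the shares rose, for *Nos3* in Artery from 23% to 52.5%.

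Named populations were not uniform. Artery consisted of 3 Leiden clusters of ECs. Of the 12 Artery markers, cluster 5 met 11, cluster 8 met 8 and cluster 6 met 6. Cluster 6 held *Ednrb* at 295 to 866 CPM and *Klf2* at 507 to 1222 CPM, whereas cluster 5 held *Ednrb* at 20.4 to 110.3 CPM and *Klf2* at 1745 to 2533 CPM, with no overlap of libraries in either gene. Cluster 8 had the most *Klf2*, at 2224 to 3555 CPM, and *Ednrb* between the others, at 172 to 465 CPM. The cluster with the most of the endothelin receptor was thus the one with the least *Klf2* and the fewest Artery markers met. *Ramp2* was also lower in cluster 6 (410.2 to 713 CPM) than in cluster 5 (963 to 2066 CPM). Lymph-Col consisted of clusters 0 and 9. *Adm* was found in cluster 0 at 253 to 627 CPM and in cluster 9 at 0 to 58.7 CPM, while *Ednrb* lay at 90.6 to 146 CPM in cluster 0 and at 307 to 724 CPM in cluster 9. Cluster 9 showed 7 of the 9 Lymph-Col markers and was led by *Fxyd2*, *Neo1*, *Irx5* and *Irx3*. In Cap-Kdr, *Ednrb* marked cluster 2 (144 to 216 CPM) over cluster 7 (0 to 37.4 CPM). These differences are described without a test, since clusters come from the same cells, although the 10 genes and the pathway lists were left out of the variable genes used for clustering.

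**Figure D2:**
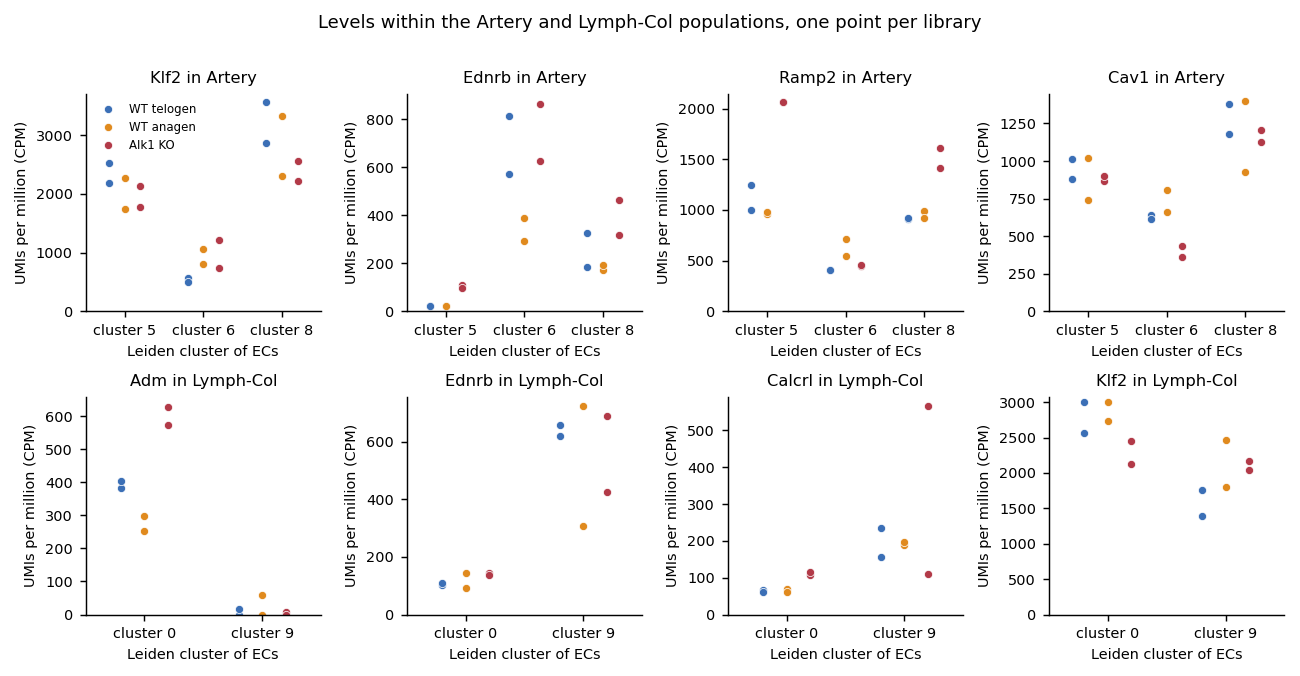
Level in CPM (y axis, linear, from 0) in the Leiden clusters (x axis) that make up Artery (upper row, *Klf2*, *Ednrb*, *Ramp2* and *Cav1*) and Lymph-Col (lower row, *Adm*, *Ednrb*, *Calcrl* and *Klf2*), with 1 point per library coloured by group. *Ednrb* is high in arterial cluster 6, where *Klf2* is low, and *Adm* is high in lymphatic cluster 0 while *Ednrb* is high in cluster 9.

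Across 15 cell types of the WT libraries, the likeness of 2 genes was taken as Pearson's r of mean log2(CPM + 1), as a description over points that share libraries and depth. Among 10190 genes, the 3 most like *Nos3* were *She* (0.98), *Rasgrf2* (0.98), *Podxl* (0.98), and those most like *Cav1* were *Ehd2* (0.98), *Amotl2* (0.97), *Cavin1* (0.97), of which *Ehd2* and *Cavin1* also encode caveolar proteins. For *Klf2* they were *Zscan26* (0.94), *Gm26802* (0.93), *Btbd7* (0.90), for *Klf4* *Arrdc3* (0.90), *Dennd2c* (0.86), *Zfpm2* (0.84), for *Edn1* *Fabp4* (0.90), *Mmrn2* (0.90), *Mecom* (0.90) and for *Ednrb* *Hyal1* (0.94), *Gapvd1* (0.92), *Plekhg5* (0.92). For *Ece1* they were *Rapgef5* (0.97), *Dll1* (0.96), *Mall* (0.96), for *Adm* *Arhgap32* (0.94), *Palm* (0.92), *Neo1* (0.89), for *Ramp2* *Hoxd8* (0.97), *Dchs1* (0.97), *Hoxd3os1* (0.97) and for *Calcrl* *4833403J16Rik* (0.93), *Chst15* (0.92), *Gimap6* (0.91). Between members, *Nos3* and *Ece1* were the most alike over the 15 cell types (r = 0.92). Over the 6 EC populations alone, the 3 member pairs with the largest absolute r were *Klf2* and *Klf4* (r = 0.88), *Edn1* and *Adm* (r = -0.87), and *Nos3* and *Calcrl* (r = -0.87). *Nos3* had r = -0.03 with *Klf2* and 0.04 with *Klf4*, and *Edn1* had r = -0.24 with *Klf2* and -0.45 with *Klf4*.

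No change of these genes with hair growth passed the test. Counts were summed per library and cell type and compared between WT anagen and WT telogen in 8 cell types by edgeR's quasi-likelihood test, and a gene was called where the adjusted p fell below 0.05 and the change exceeded 1.3-fold. None of 77 tests was called, against 0.612% of all gene tests in these cell types. DESeq2 called 1, and 17 of the 77 had an unadjusted p under 0.05, as did 14.2% of all gene tests. By cell type, the calls were 0 of 10 genes tested in Artery (background 0.556%), 0 of 9 in Vein (0.62%), 0 of 10 in Cap-Kdr (0.0513%), 0 of 10 in Cap-Rgcc (0.564%), 0 of 9 in Lymph-Col (1.63%), 0 of 10 in Lymph-Cap (0.549%), 0 of 9 in perineurial cells (0.806%) and 0 of 10 in pericytes with vSMC (0.0456%). With so few genes called in all, a count of 0 is near the background and says little about these 10.

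The nearest to a call was *Ramp2* in perineurial cells, from 67 and 69.9 CPM in the telogen libraries to 106 and 109 CPM in the anagen libraries (log2 fold change 0.72 ± 0.13, adjusted p = 0.0514). Over all cells of a library *Ramp2* lay at 235 and 173 CPM in the telogen and 672 and 757 CPM in the anagen libraries. The part of RNA from ECs in the perineurial values was not tested. In Cap-Rgcc *Klf2* went from 323 and 319 CPM in the telogen libraries to 567 and 439 CPM in the anagen libraries (log2 fold change 0.74 ± 0.17, adjusted p = 0.0937). *Ednrb* went from 249.7 and 323 CPM in the telogen libraries to 157 and 194 CPM in the anagen libraries in Artery (log2 fold change -0.60 ± 0.16, adjusted p = 0.136). In each of these 3 the groups did not overlap, but the adjusted p stayed above 0.05. The 9 Macrophage markers summed in Artery to 42 and 134 CPM in the telogen and 10.8 and 3.19 CPM in the anagen libraries, and their part in the *Ednrb* value was not tested. Leaving out WT anagen S1 gave 10 calls and leaving out WT anagen S2 gave 5, and the share of all gene tests called rose in these fits to 5.38% and 3.7%.

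Loss of Alk1 went with many more changes. The targeted gene comes first: *Acvrl1* lay in Artery at 312 and 285 CPM in the telogen and 307 and 249.999 CPM in the KO libraries, and in Cap-Kdr at 176 and 137 CPM in the telogen and 104 and 95.3 CPM in the KO libraries. In Cap-Rgcc it went from 205 and 175 CPM to 116 and 109 CPM and in Lymph-Cap from 78.5 and 47.2 CPM to 72.3 and 48.2 CPM. The labels do not name the floxed exons, and counts at the 3′ end cannot check their deletion. Of 73 tests of the 10 genes, 25 were called (34.2%), beside 19.6% of all gene tests. Of these, 18 were higher and 7 lower in the KO, with backgrounds of 9.02% and 10.6%, and the median log2 fold change of the 73 was -0.05. The calls were 2 of 9 genes tested in Artery (background 18.5%), 1 of 10 in Vein (22.3%), 4 of 10 in Cap-Kdr (35.8%), 6 of 10 in Cap-Rgcc (19%), 4 of 9 in Lymph-Col (17.3%), 5 of 10 in Lymph-Cap (16%), 2 of 6 in perineurial cells (22.1%) and 1 of 9 in pericytes with vSMC (5.87%). In Artery, Vein and Cap-Kdr the share of genes called is near or below the background, and the count was furthest above it in Cap-Rgcc and the lymphatic populations. Those counts fell when a telogen library was left out, in Cap-Rgcc to 2 without WT telogen S1 and 1 without WT telogen S2, in Lymph-Col to 1 in both fits and in Lymph-Cap to 4 and 3. All 25 calls had groups that did not overlap, which with 2 libraries a group adds little to the call itself. The share of all genes without overlap was not counted. Both comparisons share the telogen libraries as control. Leaving out WT telogen S2, which makes the comparison one of female mice, gave 13 calls, 11 of them among the 25, and leaving out WT telogen S1 gave 15. The share of all gene tests called fell as well, to 11.4% and 11.6%. Names of the KO capillaries rest on the correction between libraries: without it 470 and 510 KO ECs stayed unnamed, and Cap-Kdr kept 31 and 7 KO cells and Cap-Rgcc 1 and 0. Of 62 tests of the 10 genes over 7 cell types, 16 were then called. Among all genes the Cap-Kdr calls also fell, to 181 higher and 185 lower of 6922 from 1400 and 1573 of 8305.

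**Figure D3:**
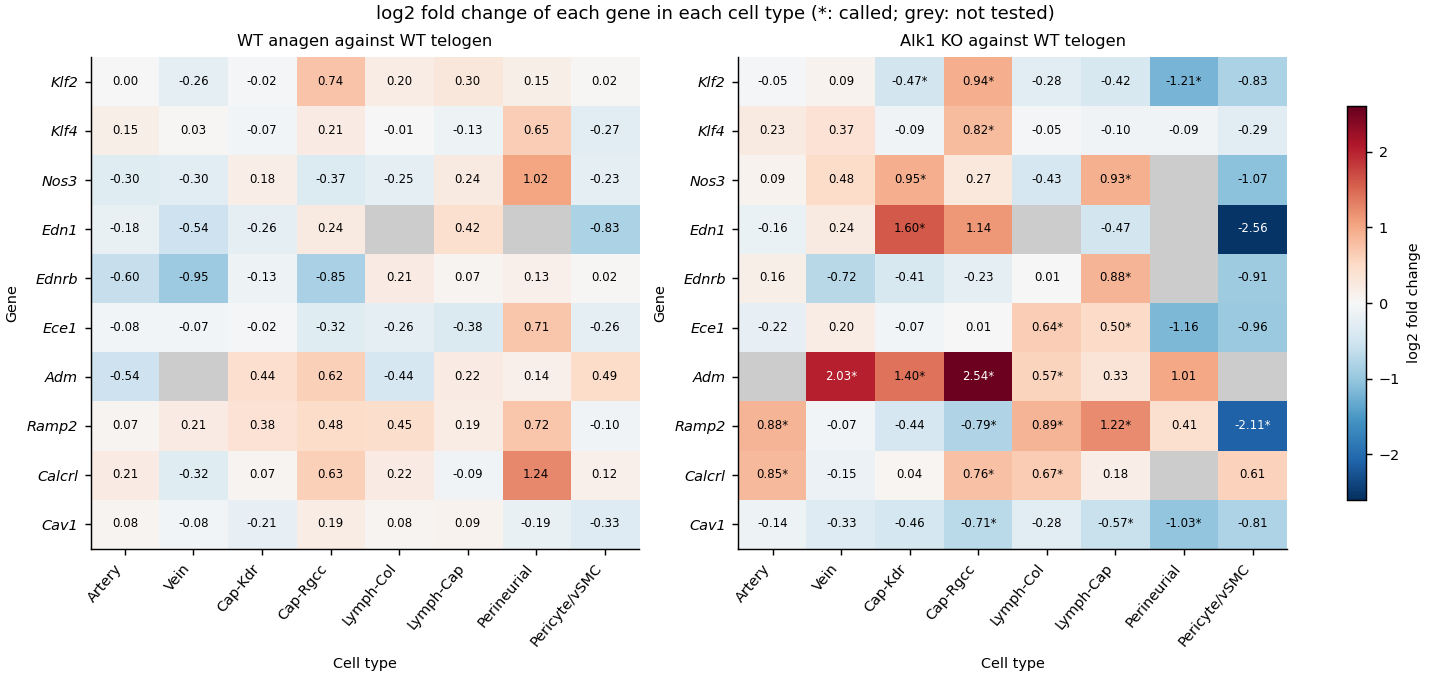
log2 fold change (colour, and number in each field) of the 10 genes (rows) in 8 cell types (columns) for WT anagen against WT telogen (left) and Alk1 KO against WT telogen (right), with an asterisk for a call and grey for genes not tested. No field is called on the left, and 25 are on the right, among them *Ramp2* in Artery, Lymph-Col and Lymph-Cap and *Adm* in 4 EC populations.

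*Ramp2*, the partner of the adrenomedullin receptor, rose in the arteries and in both lymphatic populations. It went from 768 and 931 CPM in the telogen libraries to 1581 and 1541 CPM in the KO libraries in Artery (log2 fold change 0.88 ± 0.14, adjusted p = 0.000967). In Lymph-Cap it went from 767 and 825 CPM in the telogen libraries to 2102 and 1722 CPM in the KO libraries (log2 fold change 1.22 ± 0.15, adjusted p = 8.40e-05), and in Lymph-Col from 572 and 593 CPM in the telogen libraries to 1276 and 989 CPM in the KO libraries (log2 fold change 0.89 ± 0.15, adjusted p = 0.00247). These 3 calls held under all 14 alternatives run, each with a fold change that stayed positive. Within Artery the levels rose in cluster 5, from 996 and 1249.9 to 2066 and 2060.2 CPM, and in cluster 8, from 906 and 926 to 1612 and 1414 CPM, whereas cluster 6 held 412 and 410.2 CPM in the telogen and 448 and 455 CPM in the KO libraries. Cap-Rgcc went the other way, from 528 and 675 CPM in the telogen libraries to 318 and 378 CPM in the KO libraries (log2 fold change -0.79 ± 0.22, adjusted p = 0.0217). Vein, with 1067 and 1032 CPM against 1049 and 964 CPM, was not called (log2 fold change -0.07).

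*Adm*, the ligand, rose in 4 EC populations. In Lymph-Col, its main site, it went from 324 and 369 CPM in the telogen libraries to 563 and 519 CPM in the KO libraries (log2 fold change 0.57 ± 0.14, adjusted p = 0.0200), and the rise lay in cluster 0, from 383 and 404 to 627 and 572 CPM. In the blood vessels it started low. It went from 6.07 and 6.14 CPM in the telogen libraries to 40.9 and 30.6 CPM in the KO libraries in Cap-Rgcc (log2 fold change 2.54 ± 0.48, adjusted p = 0.00221), a call kept under all 13 alternatives that could be run there. In Vein it went from 4.92 and 1.71 CPM in the telogen libraries to 14.6 and 13.5 CPM in the KO libraries, from 8 UMIs in the telogen and 31 in the KO libraries together (log2 fold change 2.03 ± 0.55, adjusted p = 0.0176), a call kept under 7 of 13 alternatives. In Cap-Kdr it went from 18.1 and 27.3 CPM in the telogen libraries to 68.8 and 66.4 CPM in the KO libraries (log2 fold change 1.404 ± 0.29, adjusted p = 0.00128), but with clusters made without correction the log2 fold change there was 0.09 and was not called. *Calcrl*, the receptor, rose in Artery from 29.7 and 33.1 CPM in the telogen libraries to 43.1 and 69.1 CPM in the KO libraries (log2 fold change 0.85 ± 0.26, adjusted p = 0.0414), in Lymph-Col from 91.9 and 70.4 CPM in the telogen libraries to 156 and 116 CPM in the KO libraries (log2 fold change 0.67 ± 0.19, adjusted p = 0.0375) and in Cap-Rgcc from 74.1 and 81.3 CPM in the telogen libraries to 105 and 162 CPM in the KO libraries (log2 fold change 0.76 ± 0.25, adjusted p = 0.0412). All 3 of these receptor calls had an adjusted p close to 0.05 and were lost under DESeq2 or other settings, with 9, 9 and 3 alternatives keeping them.

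Among the endothelin genes the ligand was called in Cap-Kdr alone, the enzyme in both lymphatic populations and the receptor in Lymph-Cap alone. *Edn1* went from 30.8 and 53.5 CPM in the telogen libraries to 165 and 122 CPM in the KO libraries in Cap-Kdr (log2 fold change 1.60 ± 0.25, adjusted p = 0.000124) and kept this call under all 14 alternatives. Cap-Kdr consisted of clusters 2 and 7, and cluster 7, which met only 3 of 10 Cap-Kdr markers, held 9.66% of its cells in the telogen, 27.3% in the anagen and 21.4% in the KO libraries. Within cluster 2 *Edn1* lay at 33.6 and 54.1 CPM in the telogen and 123 and 138 CPM in the KO libraries. The 12 Artery markers, whose population holds the most *Edn1*, summed in Cap-Kdr to 722 and 643 CPM in the telogen and 1205 and 1084 CPM in the KO libraries, and their part in the rise was not tested. In Artery itself *Edn1* was not called (log2 fold change -0.16, adjusted p = 0.507). *Ece1* rose in Lymph-Cap from 614 and 616 CPM in the telogen libraries to 911 and 885 CPM in the KO libraries (log2 fold change 0.50 ± 0.14, adjusted p = 0.0279) and in Lymph-Col from 250.03 and 283 CPM in the telogen libraries to 487 and 387 CPM in the KO libraries (log2 fold change 0.64 ± 0.16, adjusted p = 0.0192). *Ednrb* rose in Lymph-Cap from 121 and 117 CPM in the telogen libraries to 209.5 and 246 CPM in the KO libraries (log2 fold change 0.88 ± 0.16, adjusted p = 0.00198), under all 14 alternatives. The Macrophage markers summed there to 107 and 186 CPM in the telogen and 19.2 and 20.5 CPM in the KO libraries, and their part in the *Ednrb* value was not tested. The Lymph-Cap cells of the KO also had lower summed Lymph-Cap markers (26199 and 18022 against 12822 and 12587 CPM) and higher Cap-Kdr markers (707 and 995 against 1749.9 and 1850.04 CPM), and whether the same cells were compared was not tested.

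*Nos3* rose in Lymph-Cap from 47.6 and 48.7 CPM in the telogen libraries to 98.9 and 90.9 CPM in the KO libraries (log2 fold change 0.93 ± 0.19, adjusted p = 0.00456) and in Cap-Kdr from 62.7 and 36.4 CPM in the telogen libraries to 101 and 117 CPM in the KO libraries (log2 fold change 0.95 ± 0.25, adjusted p = 0.00716). The Cap-Kdr value turned to -0.029 with clusters made without correction between libraries. The part of the larger share of cluster 7 among KO Cap-Kdr cells was not tested. In Artery, where *Nos3* is highest, the libraries overlapped, with 211 and 241 CPM against 241 and 238 CPM. *Cav1*, which restrains the enzyme, was called lower in 3 cell types and had a negative fold change in all 8. It fell in Lymph-Cap from 533 and 571 CPM in the telogen libraries to 375 and 393 CPM in the KO libraries (log2 fold change -0.57 ± 0.15, adjusted p = 0.0161) and in Cap-Rgcc from 602 and 649 CPM in the telogen libraries to 343 and 426 CPM in the KO libraries (log2 fold change -0.71 ± 0.21, adjusted p = 0.0309).

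The flow factors moved in both directions. *Klf2* rose in Cap-Rgcc from 323 and 319 CPM in the telogen libraries to 627 and 601 CPM in the KO libraries (log2 fold change 0.94 ± 0.21, adjusted p = 0.00706) and *Klf4* there from 279 and 391 CPM in the telogen libraries to 582 and 599 CPM in the KO libraries (log2 fold change 0.82 ± 0.23, adjusted p = 0.0206). Both calls were lost when either telogen library was left out, and were kept under 11 and 9 of 13 alternatives. In that population the 17 immediate-early and dissociation-responsive genes summed to 15655 and 15344 CPM in the telogen and 23374 and 21623 CPM in the KO libraries, 6 of 17 were called higher and 0 lower, and their part in the rise was not tested. In Cap-Kdr *Klf2* went from 1837 and 1548 CPM in the telogen libraries to 1319.7 and 1446 CPM in the KO libraries (log2 fold change -0.47 ± 0.17, adjusted p = 0.0406), a fall kept under 5 of 14 alternatives. Cluster 7 made up 9.66% of Cap-Kdr cells in the telogen and 21.4% in the KO libraries, and its part in the fall was not tested. Neither gene was called in Artery, Vein, Lymph-Col or Lymph-Cap, where *Klf2* had log2 fold changes from -0.42 to 0.09 and *Klf4* from -0.10 to 0.37.

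Outside the endothelium, both *Klf2* and *Cav1* fell in perineurial cells. *Klf2* fell from 867 and 801 CPM in the telogen libraries to 259.9 and 542 CPM in the KO libraries (log2 fold change -1.21 ± 0.26, adjusted p = 0.00366), under all 14 alternatives, and *Cav1* from 1697 and 1839 CPM in the telogen libraries to 865 and 1000.2 CPM in the KO libraries (log2 fold change -1.03 ± 0.21, adjusted p = 0.00265). The KO values came from 80 and 55 cells, against 545 and 856 in the telogen libraries. The immediate-early and dissociation-responsive genes summed in these cells to 25222 and 20679.8 CPM in the telogen and 29646 and 27359.6 CPM in the KO libraries. In pericytes with vSMC *Ramp2* fell from 301 and 276 CPM in the telogen libraries to 106 and 28 CPM in the KO libraries (log2 fold change -2.11 ± 0.47, adjusted p = 0.0441). There the 10 EC markers, none at 0 in any library, summed to 3103 and 2406 CPM in the telogen and 609.96 and 1827 CPM in the KO libraries, and their part in the fall was not tested.

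For 6 of the 10 genes a difference between blood and lymphatic ECs in the response to the KO was called. The test took the mean response of the 4 blood populations minus that of the 2 lymphatic ones, with the library as a block. Populations of the same mouse entered this fit as separate observations. Its SE and p-values therefore do not measure how the difference varies between mice, of which there were 2 a group. Of all genes, 18.6% were called. *Ramp2*, called higher in both lymphatic populations and in Artery and lower in Cap-Rgcc, had a difference of -1.14 ± 0.11, adjusted p = 3.60e-09. *Ednrb* (-0.71 ± 0.20, adjusted p = 0.0117) and *Ece1* (-0.57 ± 0.12, adjusted p = 0.000658) also leaned to the lymphatics. *Adm* leaned to the blood vessels (1.15 ± 0.26, adjusted p = 0.00173), as did *Klf2* (0.50 ± 0.13, adjusted p = 0.00492) and *Klf4* (0.42 ± 0.11, adjusted p = 0.00845). Without WT telogen S2 there were 3 calls. Artery and Lymph-Col alone gave only 1 call, and there the difference of *Ramp2* was -0.0031 and not called, while *Ednrb* (0.14) and *Adm* (-0.19) had the opposite sign, so these 3 differences depend on the other EC populations. For hair growth, 0 of 10 genes differed between blood and lymphatic ECs, with a background of 0.5%, and *Ednrb* had the smallest unadjusted p (0.0104; difference -0.71 ± 0.26, adjusted p = 0.308).

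**Figure D4:**
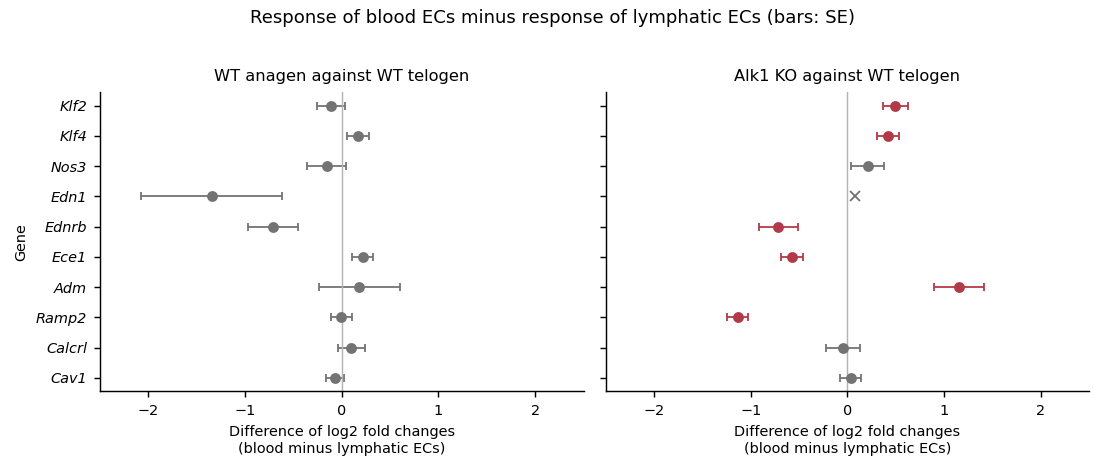
Response of blood ECs minus response of lymphatic ECs (x axis, difference of log2 fold changes, with the SE as bars) for the 10 genes (y axis), for hair growth (left) and the KO (right). Called genes are red; *Edn1* in the KO is a cross without a bar because its SE was 4.18. In the KO *Ramp2*, *Ednrb* and *Ece1* lie left of 0 and *Adm*, *Klf2* and *Klf4* right of it.

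A sum that does not depend on the capillary names was added after these results were seen. Over all blood ECs, cycling ones included, *Adm* was the single gene of the 10 called in the KO, beside 36.9% of all genes. It had 7.51 and 8.67 CPM in the telogen against 28.6 and 27.4 CPM in the KO libraries (log2 fold change 1.75 ± 0.21, adjusted p = 0.000208). Over all cells of a library *Adm* lay at 37.5 and 30.3 CPM in the telogen and 128 and 127 CPM in the KO libraries. The part of RNA from other cells in the blood EC values was not tested. *Ramp2* and *Klf2*, each called in opposite directions in single blood populations, had log2 fold changes of 0.19 and -0.02 in the sum. Over both lymphatic populations 5 of the 10 were called, beside 25.2% of all genes. *Ramp2* (log2 fold change 1.28 ± 0.13, adjusted p = 0.000126), *Ece1* (log2 fold change 0.93 ± 0.12, adjusted p = 0.000382) and *Calcrl* (log2 fold change 0.67 ± 0.14, adjusted p = 0.00582) were higher, and *Klf2* (log2 fold change -0.69 ± 0.11, adjusted p = 0.00158) and *Klf4* (log2 fold change -0.42 ± 0.11, adjusted p = 0.0229) lower. The makeup of the sum moved too: Lymph-Cap gave 180 and 164 cells beside 362 and 408 of Lymph-Col in the telogen libraries. In the KO libraries it gave 408 and 513 beside 288 and 332. Lymph-Cap holds less *Klf2* and *Klf4* than Lymph-Col and more *Ramp2*, *Ece1* and *Calcrl*. For *Ramp2* and *Ece1* the fold change of the sum exceeded that of either population. The part of the shift in these 5 calls was not tested. Clusters made without correction also gave 6 calls.

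Other genes of these pathways were taken from lists of 108 genes in the 6 EC populations and perineurial cells, and counted by the same call. For hair growth 5 tests were called, beside 0.686% of all gene tests. *Slco2a1*, a prostaglandin transporter, was lower in Artery (log2 fold change -0.90 ± 0.16, adjusted p = 0.0465), and the heat-shock gene *Hspa1a* was higher there (log2 fold change 0.87 ± 0.14, adjusted p = 0.0375). The BMP-pathway genes *Eng* (log2 fold change 1.57 ± 0.23, adjusted p = 0.0292), *Id2* (log2 fold change 1.12 ± 0.18, adjusted p = 0.0347) and *Id3* (log2 fold change 0.81 ± 0.12, adjusted p = 0.0292) were higher in perineurial cells. *Eng* lay there at 10.2 and 8.61 CPM in the telogen and 23 and 29.2 CPM in the anagen libraries. The part of RNA from ECs in these *Eng* values was not tested. The shear-sensing and MEF2-route, nitric oxide, endothelin, adrenomedullin, caveolar and other vasoactive lists had 0 calls in 119, 66, 4, 26, 45 and 48 tests, while 1 of 64 was called among the other flow-induced genes, 3 of 73 among Alk1 and BMP genes and 1 of 119 among immediate-early genes. The lists' median log2 fold changes were -0.16 (shear sensing), -0.14 (flow-induced), 0.06 (nitric oxide), 0.54 (endothelin), 0.21 (adrenomedullin), -0.04 (caveolar), 0.10 (other vasoactive), -0.12 (Alk1 and BMP) and 0.20 (immediate-early).

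In the KO the background over these 7 cell types was 21.5%, and the nitric oxide list was called mostly in one direction: 22 of 63 tests were lower and 3 higher, with a median log2 fold change of -0.66, where all genes tested had medians from -0.05 to 0.02 by cell type. The list holds genes that favour the signal and genes that oppose it, so the shared direction gives none for the pathway. For these lists, too, the names of the Cap-Kdr and Cap-Rgcc cells of the KO rest on the correction between libraries. *Ddah1* and *Ddah2* break down an inhibitor of nitric oxide synthase. *Ddah1* fell from 70.2 and 117 CPM in the telogen to 11.8 and 7.31 CPM in the KO libraries in Lymph-Cap (log2 fold change -3.34 ± 0.30, adjusted p = 8.43e-06), and *Ddah2* from 138 and 155 CPM in the telogen to 42.7 and 45 CPM in the KO libraries in Cap-Kdr (log2 fold change -1.91 ± 0.21, adjusted p = 2.85e-06). *Gchfr*, the feedback regulator of the cofactor enzyme GCH1, fell in Cap-Kdr (log2 fold change -2.57 ± 0.44, adjusted p = 0.000263). *Gch1* itself was called lower in perineurial cells from 2 KO UMIs, a telogen-to-KO ratio of 5.37 (95% counting interval 1.47 to 44.6). *Nos3*, called higher in Lymph-Cap and Cap-Kdr, went the other way from *Ddah1* in the former and from *Ddah2* and *Gchfr* in the latter.

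Other flow-induced genes were called lower in 16 and higher in 7 of 61 tests (median -0.25). *Aqp1*, a water channel, fell in Lymph-Cap (log2 fold change -4.66 ± 0.44, adjusted p = 1.05e-05), *Slco2a1* in Cap-Kdr (log2 fold change -2.97 ± 0.23, adjusted p = 9.18e-08), and *Hmox1*, haem oxygenase 1, and *Ptgis*, prostacyclin synthase, in Artery (log2 fold change -2.19 ± 0.30, adjusted p = 0.000283 and log2 fold change -1.90 ± 0.35, adjusted p = 0.00270). The shear-sensing and MEF2-route list was called both ways, 17 higher and 12 lower of 118 (median -0.02). *Pkd1*, a polycystin of the flow-sensing cilium, rose in Cap-Kdr (log2 fold change 1.89 ± 0.24, adjusted p = 1.86e-05), and the stretch-gated channels *Piezo1* (log2 fold change 1.58 ± 0.29, adjusted p = 0.00125) and *Trpv4* (log2 fold change 1.93 ± 0.40, adjusted p = 0.00279) rose in perineurial cells. *Plxnd1*, a semaphorin receptor that also senses shear, was called lower there from 1 KO UMI, a telogen-to-KO ratio of 11.5 (95% counting interval 2.04 to 455).

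Caveolar genes were called lower in 11 and higher in 5 of 45 tests (median -0.09). Among the genes of the caveolar coat, *Cavin2* went from 1020.1 and 1274 CPM in the telogen to 242 and 186 CPM in the KO libraries in Cap-Kdr (log2 fold change -2.59 ± 0.20, adjusted p = 1.04e-07), *Cavin1* fell there too (log2 fold change -0.81 ± 0.18, adjusted p = 0.00198) and *Cavin3* fell in Cap-Rgcc (log2 fold change -0.999 ± 0.22, adjusted p = 0.00605). *Pacsin3*, a membrane-bending protein, rose in Lymph-Col (log2 fold change 2.48 ± 0.32, adjusted p = 0.000515). The other adrenomedullin and CGRP genes were called lower in 5 and higher in 2 of 25 tests (median -0.16). *Ramp3*, the alternative receptor partner, fell from 46.8 and 35.3 CPM in the telogen to 3.56 and 5.36 CPM in the KO libraries in Cap-Kdr (log2 fold change -3.33 ± 0.45, adjusted p = 2.82e-05), *Pam*, which amidates the peptide, fell in Lymph-Col (log2 fold change -0.71 ± 0.18, adjusted p = 0.0210), and *Ackr3*, a scavenging receptor for the peptide, rose in perineurial cells (log2 fold change 1.32 ± 0.22, adjusted p = 0.000581).

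Of the other endothelin genes, *Ednra* included, none was measured well enough to be tested in any EC population of the KO comparison, and 2 of 3 tests in perineurial cells were called lower (median log2 fold change -1.5004 with the genes at 0 set to their bound). There *Edn3* had 1 KO UMI, a telogen-to-KO ratio of 8.49 (95% counting interval 1.5005 to 337), and *Mme*, neprilysin, which degrades the peptide, had none and was at least 2.83-fold lower against a floor of 3 UMIs over both KO libraries. The other vasoactive genes were called higher in 11 and lower in 6 of 40 tests (median 0.34). *Aplnr*, the apelin receptor, fell in Cap-Kdr (log2 fold change -4.58 ± 0.36, adjusted p = 1.04e-07), the natriuretic peptide receptor *Npr3* (log2 fold change 3.93 ± 0.38, adjusted p = 0.000101) and cyclooxygenase 1, *Ptgs1* (log2 fold change 3.61 ± 0.62, adjusted p = 0.00281), rose in Lymph-Col, and cyclooxygenase 2, *Ptgs2*, had no UMI in KO perineurial cells, at least 5.21-fold lower.

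Alk1 and BMP target genes were called higher in 16 and lower in 13 of 75 tests (median 0.15). The inhibitory Smads *Smad7* (log2 fold change 3.26 ± 0.31, adjusted p = 9.44e-06) and *Smad6*, at 0 in the telogen libraries and at least 12.8-fold higher in the KO, rose in Lymph-Cap together with the Notch and BMP target *Hey1* (log2 fold change 1.85 ± 0.28, adjusted p = 0.000400). *Id3*, a direct BMP target, fell from 1187 and 928 CPM in the telogen to 333 and 329.9 CPM in the KO libraries in Cap-Kdr (log2 fold change -1.85 ± 0.19, adjusted p = 1.94e-06). The immediate-early and dissociation-responsive genes were called higher in 23 and lower in 18 of 119 tests (median 0.15), with *Egr1* higher in Cap-Rgcc (log2 fold change 1.64 ± 0.25, adjusted p = 0.000444), *Hspa1b* higher in perineurial cells (log2 fold change 1.89 ± 0.26, adjusted p = 0.000116), *Hspa1a* lower in Cap-Kdr (log2 fold change -1.78 ± 0.27, adjusted p = 9.30e-05) and *Hsp90aa1* lower in Lymph-Cap (log2 fold change -1.41 ± 0.16, adjusted p = 3.98e-05).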

How the data were processed

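tdTomato+ cells from 2 WT telogen, 2 WT anagen and 2 Alk1 KO mice were profiled with the 10x 3′ v3 kit. The authors deposited UMI counts per gene and barcode; the submitters' processing notes name Cell Ranger 6.0.1, Seurat 4.0 and mm10. The 10 genes and all lists were chosen with earlier results of these data known. Cells with 200 to 5000 genes and under 10% mitochondrial UMIs were kept, normalized, reduced to 30 components of 3000 variable genes without the 10 genes and the lists, corrected between libraries with Harmony (theta 2, sigma 0.1) and clustered by Leiden (20 neighbours, resolution 0.6), first all cells and then ECs, in Python 3.11.15 with scanpy 1.11.5. Clusters were named from at least 3 markers raised 2-fold and found in 25% of cells. Doublets were kept, and removing the 5% of cells with the highest Scrublet score was an alternative.

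Counts were summed per library and cell type with at least 5 cells in each library and tested with edgeR 4.0.16 (filterByExpr, TMM, quasi-likelihood F test, Benjamini-Hochberg adjustment over all genes tested). The fits were checked first on simulated counts. Of genes changed 2-fold there, 12% (pericytes with vSMC) to 57% (Vein) were called for hair growth. For the KO it was 18% (perineurial cells) to 52% (Lymph-Col). Many 2-fold changes would thus be missed. DESeq2 1.42.0 was an alternative. Standard errors are the absolute log2 fold change divided by the square root of F. Levels are CPM with the SD over libraries. Pathway genes were named where called, at most 4 per list and comparison by the size of the log2 fold change, and like genes had at least 20 CPM in a cell type. Replicate numbers were not used to pair libraries, since nothing in the labels says that they do. The spread between mice rests on 2 libraries a group. Promoters were read from the RefSeq table (GRCm38.p6) and gene positions from the annotation of the files' build.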

Additional observations from a re-analysis of the deposited data

Results flagged for a closer look

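Listed here are 6 genes called for a difference between blood and lymphatic ECs in their response to the KO (edgeR's quasi-likelihood test with the library as a block, 2 KO against 2 telogen libraries). Populations of the same mouse entered as separate observations, so the SE and adjusted p do not measure the spread of the difference between mice. The response of blood ECs minus that of lymphatic ECs was -1.14 ± 0.11, adjusted p = 3.60e-09 for *Ramp2* on the log2 scale, and the values of *Ednrb* (-0.71 ± 0.20, adjusted p = 0.0117) and *Ece1* (-0.57 ± 0.12, adjusted p = 0.000658) had the same sign. The response was higher in blood ECs for *Adm* (1.15 ± 0.26, adjusted p = 0.00173), *Klf2* (0.50 ± 0.13, adjusted p = 0.00492) and *Klf4* (0.42 ± 0.11, adjusted p = 0.00845). Population by population, Cap-Rgcc (-0.79), Cap-Kdr (-0.44) and Vein (-0.07) had negative log2 fold changes of *Ramp2*, of which that in Cap-Rgcc was called, while Artery (0.88), Lymph-Col (0.89) and Lymph-Cap (1.22) were called higher. *Ednrb* was called in Lymph-Cap alone. *Adm* was called in Vein and both blood capillary populations, and in Lymph-Col. The names of the KO blood capillaries depend on the correction between libraries.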

How the results depend on the processing

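For hair growth the count of 0 calls became 3 without Harmony correction, 1 at Leiden resolution 1.2, 7 without the low-count filter, 1 under DESeq2 and 0 to 10 when each library was left out in turn. It stayed 0 under the stricter cell filter, doublet removal, no TMM, no fold threshold and all 6 libraries in one fit. The 7 without the low-count filter lay in Cap-Rgcc and perineurial cells, where calls among all genes rose too. In Cap-Rgcc these went from 36 higher and 17 lower of 9397 to 419 and 188 of 17175. In perineurial cells they went from 77 and 13 of 11172 to 447 and 224 of 18447. For the KO the 25 calls became 16 without Harmony correction, 12 of them among the 25, in 62 tests over 7 cell types, and 13 to 32 when each library was left out in turn. The other alternatives gave 17 to 30. Under DESeq2, which gave 17, fewer of all genes were called as well, in Cap-Kdr 650 higher and 813 lower of 8305 against 1400 and 1573. Calls kept under every alternative run numbered 7 of 25: *Adm* in Cap-Rgcc, *Edn1* in Cap-Kdr, *Ednrb* in Lymph-Cap, *Klf2* in perineurial cells and *Ramp2* in Artery, Lymph-Col and Lymph-Cap. *Adm* and the other Cap-Rgcc genes could not be tested without Harmony correction, which left 1 and 0 KO cells there. *Nos3* in Cap-Kdr turned to -0.029 without Harmony correction.

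The replicate block gave 5 calls for hair growth and 20 of the 25 for the KO. The 5 lay in Cap-Rgcc and perineurial cells, where calls among all genes rose to 197 higher and 205 lower of 9397 and to 493 and 216 of 11172. For the KO, calls among all genes in Cap-Rgcc fell from 589 higher and 674 lower of 6642 to 347 and 437. A crossed replicate block, added after the data were seen because the deviations of same-numbered libraries correlated at -0.11 to 0.15 over cell types for hair growth and at -0.15 to 0.04 for the KO, gave 1 and 25 calls. For blood against lymphatic ECs, the 0 calls for hair growth became 1 without the low-count filter and 0 to 1 when each library was left out. The 6 calls for the KO became 1 with Artery and Lymph-Col alone, where *Ramp2* went to -0.0031 and *Ednrb* (0.14) and *Adm* (-0.19) changed sign, and 3 to 6 when each library was left out, with 3 without WT telogen S2. The cause was not tested. This contrast was not run for the KO without Harmony correction, which left too few KO capillary cells. The cell type with the highest level stayed the same for all 10 genes under the 3 alternatives for levels, and by share of cells for 9 at 3000 UMIs and 7 without thinning. With 2 libraries a group, left-out fits assume that the lone library varies like the others, and *Edn1* could not be resolved between blood and lymphatic ECs in the KO (SE 4.18).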

Other observations

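Cycling ECs, which were too few in the KO to test (1 and 2 cells), held *Klf2* at 750.4 and 786 CPM in the telogen and 803 and 801 CPM in the anagen libraries. *Ramp2* stood there at 668 and 598 CPM in the telogen and 590.05 and 827 CPM in the anagen libraries.

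*Klf4* varied widely in cells outside the vessel wall that were not tested. Macrophages held 299 and 421 CPM in the telogen, 893 and 309 CPM in the anagen and 1826 and 1383 CPM in the KO libraries, from 22 and 35 KO cells. Fibroblasts held 901 and 793 CPM in the telogen, 1154 and 1545 CPM in the anagen and 1497 and 1547 CPM in the KO libraries, so that the telogen libraries were the lowest in both cell types apart from WT anagen S2 in macrophages, which came from 18 cells.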
